A study of Mus musculus with 5 samples.

Results

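The ADAM and ADAMTS genes encode 2 related families of zinc metalloproteinases, and 51 of them were measured among 22180 genes on 5 microarrays of mouse mammary epithelial cells. Members were taken by symbol, as every gene named Adam or Adamts followed by a digit, with the ADAMTS-like genes left out. There were 33 ADAM and 18 ADAMTS genes, each represented by 1 probe set, the one with the highest mean signal over the 5 arrays. The study compared conditional knockout mice carrying MMTV-Cre and homozygous floxed Mmp14 (MMTV-Cre+/Mmp14(f/f), n = 2 arrays) with floxed littermates without Cre (Mmp14(f/f), labelled wild type, n = 3 arrays). All mice were on a congenic FVB/NJ background and 4 weeks old, and the floxed alleles were shared by both groups. Cre was driven by the mouse mammary tumour virus promoter, which is active mainly in mammary and other secretory epithelium, so cells of the stroma would keep Mmp14. Knockout 1 and 2 and wild type 1, 2 and 3 stand below for the arrays carrying those labels. Whether an array holds 1 mouse or a pool is not stated. The p-values set each difference against the spread among these arrays, with each gene's variance moderated over all genes. Whether that spread covers the variation between mice is therefore not known.

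ADAM proteases sit in the plasma membrane and cut the outer part off other membrane proteins, among them EGF receptor ligands, Notch receptors, cytokines and cadherins. ADAM17 sheds amphiregulin, the EGF receptor ligand that carries the oestrogen signal for duct growth at puberty, and ADAM10 makes the first regulated cut of Notch receptors. ADAMTS proteases are secreted, carry thrombospondin repeats and cut matrix molecules such as versican, aggrecan and procollagens. MMP14, a membrane-anchored matrix metalloproteinase, is no member of either family, but it acts on some of the same matrix and is held back by some of the same inhibitors. The comparison asked how loss of epithelial Mmp14 changed gene expression, and here what it did to these 2 families.

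Each value is a deposited log2 signal of a probe set, normalised between arrays, so 1 unit is a doubling of signal. Array medians lay between 4.245 and 4.288. Signals of different probe sets depend on the probes as well as on the RNA, so they are not compared between genes. As a level that unexpressed genes reach, the 95th percentile of the means of 1105 olfactory receptor genes was used, which was 4.46 log2 units. Of the 10 measured luminal epithelial markers, such as Krt8 and Epcam, all 10 lay above it. But so did 9 of 9 fibroblast, 8 of 8 endothelial and 7 of 7 macrophage and leukocyte markers. Pericyte markers lay above it for 5 of 7, adipocyte markers for 3 of 6 and Schwann and nerve markers for 1 of 3. Some leukocyte markers lay close to it, such as Adgre1 at a mean of 4.63, and others well above, such as Cd68 at 7.36. RNA of other cells was therefore measured too, and in such bulk samples fewer cells of a type and less RNA per cell cannot be told apart. The labels' numbers fall into 2 runs of consecutive arrays, with knockout 1, wild type 1 and wild type 2 in run 1 and knockout 2 and wild type 3 in run 2. What a run stands for is not stated. Mmp14 itself read 7.98 and 7.28 on the knockout arrays and 8.15, 8.67 and 7.75 on the wild-type arrays, a difference of -0.56 ± 0.39 (SE; limma adjusted p = 0.919). Knockout 1 lay above wild type 3 of the other run, so the groups overlapped over the 5 arrays. Each knockout array lay below the wild-type arrays of its own run, at -0.43 within run 1 and -0.46 within run 2.

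No ADAM or ADAMTS gene passed the test between genotypes. Of the 51 members, 0 reached an adjusted p of 0.05 in limma, which fits a linear model to all genes and moderates each gene's variance, and 0 reached an unadjusted p of 0.05. Over all 22180 genes 0% were called and 1.3% had an unadjusted p under 0.05, and the smallest adjusted p was 0.919 both for the members and for all genes. The mean of the knockout arrays was higher for 19 members, lower for 28 and equal for 4. Over all genes it was higher for 10261, lower for 10988 and equal for 931. The median difference was -0.01 log2 units over the members and 0 over all genes. Differences ran from -0.20 for Adam23 to 0.32 for Adam19, and no member had means 1.5-fold or more apart, as 0.365% of all genes had.

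Which members were called depended on which knockout array was used. Without knockout 1, limma called 4 members (7.84% of 51, against 7.92% of all genes), namely Adam1b, Adam2, Adam21 and Adamts7. Without knockout 2, it called Adam1b and Adam21 (3.92%, against 3.76% of all genes). In all of these genes at least 2 wild-type arrays held exactly the same value, which lowers the estimated spread. For Adam1b the sign itself turned. Its difference was 0.36 without knockout 1 (limma adjusted p = 0.00703) and -0.50 without knockout 2 (adjusted p = 0.0207). The single knockout array left in each of these fits is assumed to vary like the wild type.

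**Figure D1:**
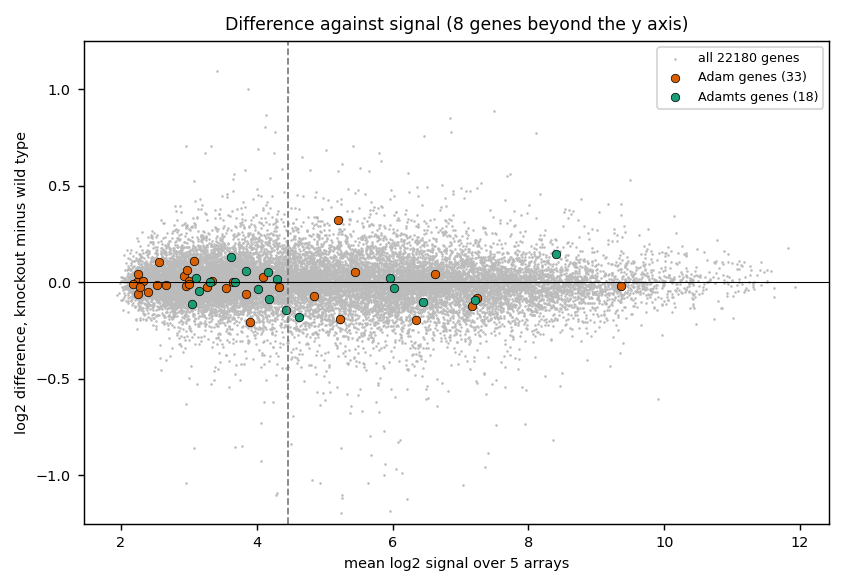
Difference between genotypes (knockout minus wild type, log2 units) against the mean log2 signal over the 5 arrays for 22180 genes (grey), with the 33 ADAM genes in orange and the 18 ADAMTS genes in green. The dashed line marks the olfactory receptor level of 4.46, 8 genes lie beyond the y axis, and the members lie between -0.20 and 0.32.

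Before the single genes, promoter sequence is shown for 4 members: Adam10 and Adam17, the main sheddases, and Adamts1 and Adamts9, the pair with the widest gaps between the knockout arrays of the proteoglycan-cleaving group. The pair was chosen after its values were seen. The letters are the 250 bases before the RefSeq start site, 5′ to 3′ in the direction of the gene, from RefSeq sequence of GRCm38.p6. The windows are chr9:70678732-70678981, plus strand, for Adam10, chr12:21373633-21373882, minus strand, for Adam17, chr16:85803114-85803363, minus strand, for Adamts1, and chr6:92943535-92943784, minus strand, for Adamts9. Capitals mark matches on either strand to the GC box GGGCGG, the CCAAT box CCAAT, the TATA box TATAAA and the ETS core CCGGAAG.
Adam10: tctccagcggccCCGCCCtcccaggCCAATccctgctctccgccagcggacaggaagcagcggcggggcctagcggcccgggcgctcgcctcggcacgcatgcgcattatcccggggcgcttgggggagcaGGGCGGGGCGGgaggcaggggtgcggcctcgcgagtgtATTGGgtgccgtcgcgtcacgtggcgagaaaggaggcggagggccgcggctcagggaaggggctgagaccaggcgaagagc
Adam17: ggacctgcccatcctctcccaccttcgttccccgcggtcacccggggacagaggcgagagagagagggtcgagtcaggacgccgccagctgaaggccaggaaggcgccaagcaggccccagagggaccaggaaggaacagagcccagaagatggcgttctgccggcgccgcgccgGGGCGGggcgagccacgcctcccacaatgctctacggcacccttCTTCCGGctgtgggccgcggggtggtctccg
Adamts1: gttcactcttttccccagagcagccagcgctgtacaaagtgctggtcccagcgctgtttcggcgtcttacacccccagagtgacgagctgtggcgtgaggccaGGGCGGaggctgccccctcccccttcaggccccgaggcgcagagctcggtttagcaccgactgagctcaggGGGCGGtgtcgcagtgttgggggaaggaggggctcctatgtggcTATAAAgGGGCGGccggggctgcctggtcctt
Adamts9: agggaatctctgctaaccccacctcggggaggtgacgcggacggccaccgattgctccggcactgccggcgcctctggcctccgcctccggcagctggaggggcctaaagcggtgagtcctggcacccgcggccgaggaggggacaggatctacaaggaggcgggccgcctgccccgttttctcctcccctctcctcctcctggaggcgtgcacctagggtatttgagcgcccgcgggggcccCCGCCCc
All 4 windows are rich in G and C, at 74%, 70.4%, 65.6% and 71.2% in that order, where the median window of the table has 52.4%. Adam10 has 3 GC boxes, 2 of them overlapping, and 2 CCAAT boxes. Adam17 has 1 GC box and 1 ETS core. In the Adamts1 window there are 3 GC boxes and a TATA box that starts 32 bases before the start site, and in that of Adamts9 there is 1 GC box. The AP-1 sequence TGACTCA and the CRE sequence TGACGTCA were searched too and were in none of the 4 windows. Among 32851 promoter windows of this length, 32.7% held a GC box, 33.8% a CCAAT box, 12.4% a TATA box, 6.91% the ETS core, 4.46% the AP-1 sequence and 1.55% the CRE sequence. Promoter windows were found for 26 of the 51 members. A match only describes the letters.

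Over both families 15 of 51 members lay above the olfactory receptor level (29.4%), against 49.5% of all genes. Among the ADAM genes with known shedding activity in body tissues, 7 of 9 had a signal above that level, and none passed the test. Adam10 read 9.49 and 9.21 on the knockout arrays and 9.39, 9.30 and 9.42 on the wild-type arrays. The wild-type values lay between those of the knockout arrays. Its difference was -0.02 ± 0.10 (SE), with a 95% interval from -0.32 to 0.27. Within run 1 the knockout was higher by 0.14 and within run 2 lower (-0.21).

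Adam17, the sheddase of amphiregulin, TGF-alpha and TNF, read 7.20 and 6.99 in the knockout and 7.35, 7.20 and 7.10 in the wild type. Knockout 2 was the lowest array, while knockout 1 lay inside the wild-type range. The difference was -0.12 ± 0.11 (SE), with a 95% interval from -0.43 to 0.19, and it was negative in both runs (-0.07 and -0.12). Areg, the gene of amphiregulin, was not analysed here.

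Adam9, a widely expressed sheddase, read 7.23 and 7.15 against 7.20, 7.39 and 7.23, with a difference of -0.08 ± 0.07 (SE) that was -0.07 within each run. Adam15, which carries an integrin-binding sequence, read 6.62 and 6.68 against 6.62, 6.49 and 6.72. Its groups overlapped fully, at 0.04 ± 0.08 (SE). A second Adam15 probe set gave 0.08.

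Adam8, a protease best known from leukocytes, read 6.44 and 6.01 against 6.57, 6.35 and 6.35. Knockout 2 stood below the other 4 arrays, and the difference was -0.20 ± 0.17 (SE). The markers of macrophages and other leukocytes had a mean of 5.45 and 5.43 on the knockout arrays and of 5.40 to 5.98 on the wild-type arrays, with 6 of 7 lower in the knockout mean; their part in the Adam8 value was not tested.

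Adam12, an ADAM of mesenchymal and tumour cells that cuts IGF-binding proteins, split the knockout arrays. It read 5.49 on knockout 1 and 4.74 on knockout 2, respectively above and below the wild-type values of 5.25, 5.37 and 5.30. The difference of -0.19 ± 0.26 (SE) became 0.18 without knockout 2 and -0.57 without knockout 1, and neither was called. Adam19, known from heart and mesenchyme development, read 5.44 and 5.33 against 5.33, 5.33 and 4.54. Wild type 3 stood apart, and the difference of 0.32 ± 0.31 (SE) fell to 0.05 without that array. The dimmer probe set of Adam19, at a mean of 3.62, gave -0.09, so its probe sets disagreed in sign. Adam28 and Adam33 lay below the olfactory receptor level, with differences of -0.02 and 0.03.

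The other ADAM genes gave little signal. Of 21 genes known mainly from testis and epididymis, where several serve sperm maturation and fertilisation, 2 lay above the olfactory receptor level. These were the neighbours Adam1a and Adam1b, which encode forms of the fertilin alpha chain. Adam1a read 5.45 and 5.51 against 5.44, 5.40 and 5.45, a difference of 0.05 ± 0.03 (SE) with positive values in both runs (0.03 and 0.07). Adam1b read 4.36 on knockout 1, 5.23 on knockout 2 and 4.87 on each wild-type array. The knockout arrays thus lay on opposite sides of 3 equal values, and the difference over all arrays was -0.07 ± 0.29 (SE).

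The remaining 19 genes of this group, which include Adam2 and Adam3 of the sperm surface, differed by -0.06 to 0.11. Adam26b was the only one of them whose groups did not overlap, at 2.40 and 2.32 against 2.42, 2.41 and 2.41, a difference of -0.05 ± 0.03 (SE) at a signal far below the olfactory receptor level. Many of these genes lie side by side in the RefSeq annotation. One row holds Adam24, Adam25, Adam20 and Adam39, another Adam26b, Adam26a, Adam34l and Adam34, and one more Adam18, Adam3, Adam5, Adam32 and Adam9. Copies within such rows can share probes, so single values there are uncertain. Of the row of 5, Adam9 alone lay above the olfactory receptor level. Adam11, Adam22 and Adam23, which lack protease activity and act in nerve cells as adhesion and receptor proteins, had signals from 3.64 to 4.26, all below that level. Adam22 held the same value on all 5 arrays.

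Of the ADAMTS genes, 6 of 18 lay above the olfactory receptor level (33.3%, against 49.5% of all genes). Of these, 4 belong to the group that cuts the proteoglycans versican and aggrecan. Adamts1, which is known from ovulation and vessel growth, read 8.02 on knockout 1 and 8.96 on knockout 2, against 8.23, 8.60 and 8.21 in the wild type. The knockout arrays were the lowest and the highest of the 5. The difference was 0.15 ± 0.35 (SE), with a 95% interval from -0.85 to 1.14, and it was -0.40 within run 1 and 0.76 within run 2.

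Adamts9, a relative also known from vessel and palate development, read 6.64 and 7.69 against 7.12, 7.62 and 7.03. Here too knockout 1 was the lowest array and knockout 2 the highest. Its difference was -0.09 ± 0.41 (SE), from -0.73 within run 1 to 0.66 within run 2. Adamts4, an aggrecanase, read 5.72 and 6.27 against 5.84, 6.30 and 5.95, and Adamts5, the other main aggrecanase, read 6.25 and 6.54 against 6.51, 6.99 and 5.97. Their differences were -0.03 ± 0.24 and -0.10 ± 0.35 (SE). Adamts5 is the neighbour of Adamts1 in the genome. Adamts4 and Adamts9 were named after their values were seen.

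These 4 genes shared part of the order of the arrays. In 4 of 4, knockout 2 was above knockout 1 and wild type 2 was the highest wild-type array, whereas over the 10984 genes above the olfactory receptor level these orders held for 33.1% and 32.4%. The highest array was knockout 2 for Adamts1 and Adamts9 and wild type 2 for Adamts4 and Adamts5, and the lowest of Adamts5 was wild type 3. The endothelial markers, among them Pecam1 and Tek, had both orders in 8 of 8 genes. Their mean relative to the wild type was -0.46 on knockout 1, 0.26 on knockout 2 and -0.05, 0.25 and -0.20 on wild type 1, 2 and 3. Pericyte markers followed with -0.21 and 0.25 on the knockout arrays and -0.16, 0.25 and -0.09 on the wild-type arrays. Knockout 2 was above knockout 1 for 6 of 7 of them and below it for 1, Pdgfrb (6.16 on knockout 1, 6.05 on knockout 2). Wild type 2 was the highest wild-type array for 5 of 7. Fibroblast markers were at 0.06 and 0.24 against -0.07, 0.35 and -0.28. Here the orders held for 8 of 9 and 9 of 9 genes. The exception, Pdgfra, read 7.47 on knockout 1 and 6.33 on knockout 2. Basal myoepithelial markers had means of 0.07 and 0.22 against -0.13, 0.26 and -0.13. Knockout 2 was above knockout 1 for 5 of these 8 genes and below it for 3, Krt14, Krt17 and Trp63. The 3 measured Schwann and nerve markers had means of 0.03 and 0.56 against -0.09, 0.17 and -0.08. Only 1 of them lay above the olfactory receptor level, and knockout 2 was above knockout 1 for 2 and below it for 1, Sox10. In both lists wild type 2 had the highest mean among the wild-type arrays. Luminal markers stayed between -0.09 and 0.12. The grouping of these 4 genes was noticed in the data, and the part of other cell types in their values was not tested.

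**Figure D2:**
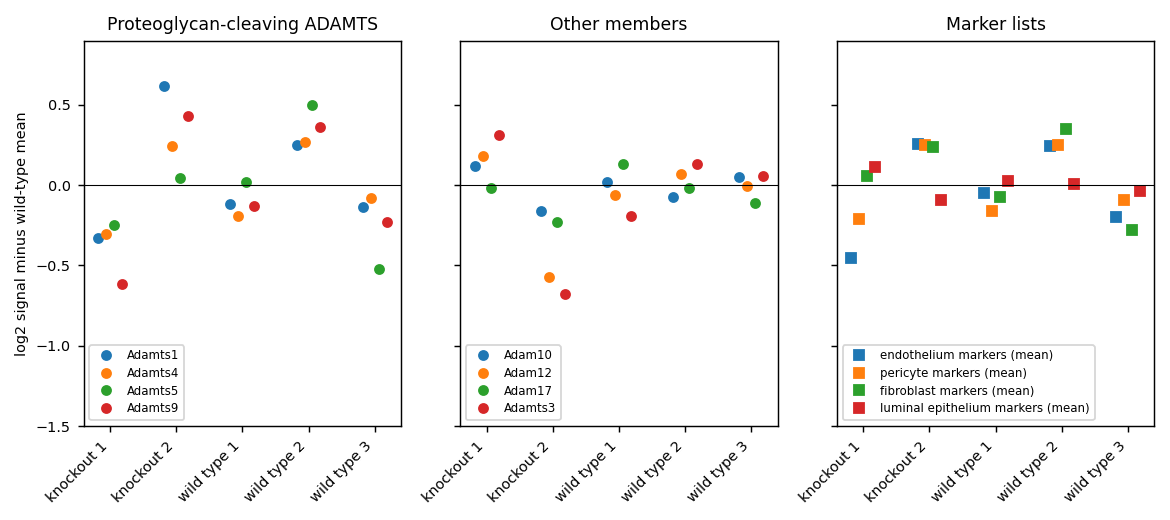
Log2 signal minus the wild-type mean of the gene on each of the 5 arrays, for 4 proteoglycan-cleaving ADAMTS genes (left), 4 other members (middle) and the means of 4 marker lists (right). Adamts1, Adamts4, Adamts5 and Adamts9 were lower on knockout 1 than on knockout 2, as was the endothelial mean (-0.46 and 0.26), whereas Adam12 and Adamts3 were higher on knockout 1.

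The other proteoglycan-cleaving genes lay below the olfactory receptor level. Adamts15 was the only ADAMTS gene whose groups did not overlap, at 3.77 and 3.61 against 3.58, 3.59 and 3.52, and its difference of 0.13 ± 0.06 (SE) had the smallest unadjusted p of all members, 0.1 in limma. Its neighbour Adamts8 differed by -0.11 and Adamts20 held 1 value on all arrays. Over both families the groups did not overlap for 1 member higher and 1 member lower in the knockout, Adamts15 and Adam26b, out of 51. Over all genes this held for 2.63% and 2.8%.

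Of the procollagen N-proteinases, which trim the amino end of fibrillar collagens and, in the case of ADAMTS3, act on the lymphatic growth factor VEGF-C, Adamts3 was above the olfactory receptor level. It read 5.01 on knockout 1 and 4.02 on knockout 2, against 4.51, 4.84 and 4.76. The knockout arrays enclosed the wild-type arrays, in the opposite order to Adamts1. Its difference was -0.18 ± 0.35 (SE), at 0.34 within run 1 and -0.74 within run 2. Adamts14 differed by -0.09, with 0.03 from its second probe set, and Adamts2 was not analysed here.

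Adamts12, which cuts cartilage oligomeric matrix protein, read 5.97 on both knockout arrays and 5.97, 6.10 and 5.78 on the wild-type arrays, a difference of 0.02 ± 0.11 (SE). Adamts7, its closest relative, read 4.49 and 4.20 against 4.49 on each wild-type array. The mean of Adamts7 over the 5 arrays, 4.43, lay just under the olfactory receptor level of 4.46, and knockout 2 alone read below that level. Its difference of -0.14 ± 0.10 (SE) came from knockout 2 alone. It was 0 without knockout 2 and -0.29 without knockout 1 (limma adjusted p = 0.00703).

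Adamts13, the protease of von Willebrand factor, held the same value of 3.31 on all arrays. The 6 less studied genes Adamts6, Adamts10, Adamts16, Adamts17, Adamts18 and Adamts19 lay below the olfactory receptor level and differed by -0.05 to 0.06. Among them Adamts18, reported to act in mammary duct branching, read 3.89 and 3.87 against 3.85, 3.88 and 3.74, a difference of 0.06 ± 0.05 (SE).

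**Figure D3:**
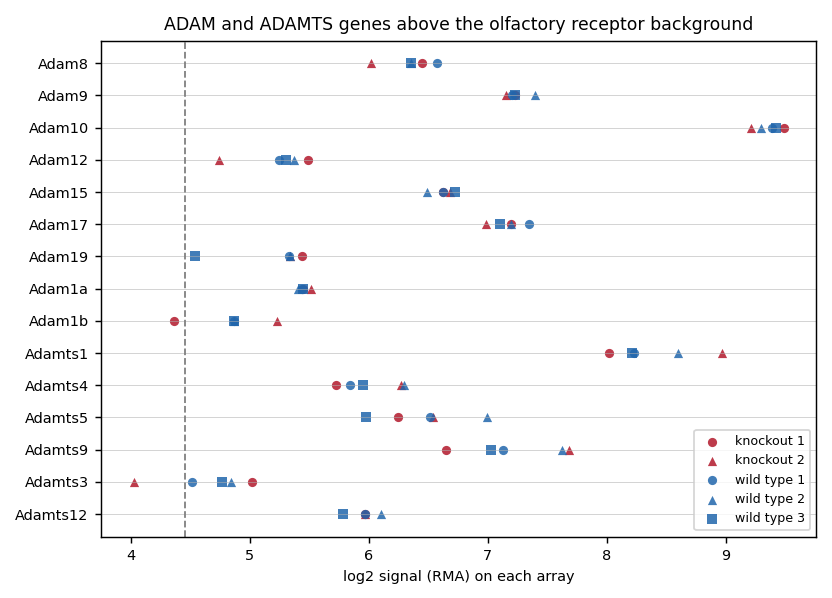
Log2 signal on each array for the 15 members above the olfactory receptor level of 4.46 (dashed line), with knockout arrays in red and wild-type arrays in blue. Knockout and wild-type points overlap for all 15 genes, and the widest gaps between knockout arrays are those of Adamts9, Adamts3, Adamts1, Adam1b and Adam12.

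Across the 15 members above the olfactory receptor level, the gap between the 2 knockout arrays exceeded the difference between genotypes in 12 (80%), against 68.3% of all genes above that level. The median gap was 0.29 log2 units, where that of all such genes was 0.13. Gaps over 0.5 occurred in 6 of the 15 (Adam12, Adam1b, Adamts1, Adamts3, Adamts4 and Adamts9), or 40%, against 11.6% of all such genes. Of these, Adam1b on knockout 1 (4.36) and Adamts3 on knockout 2 (4.02) read below the olfactory receptor level, so their gaps reach into background. The median SE of a difference was 0.24 for the 15 members and 0.09 for all genes above that level. Within the runs the difference had opposite signs for 10 of the 15 members, was negative in both for 3 and positive in both for 2. The same share over all genes was not computed, so these counts cannot be read as particular to the members. Exactly equal values on at least 2 of the 5 arrays, to 6 decimals, occurred for 36 of the 51 members (70.6%), close to the 68.8% of all genes, and 4 members held 1 value throughout.

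The genes that work with these proteases did not pass the test either. Of 72 measured relatives, partners and substrates, 0 were called by limma (0% of all genes) and 0 had an unadjusted p under 0.05. Means were higher in the knockout for 43 and lower for 28, with a median difference of 0.01. Over all genes 10261 were higher and 10988 lower, and a shift of the lists was not tested. The groups did not overlap for 2 higher and 2 lower genes, against 2.63% and 2.8% of all genes. Without knockout 1 limma called 9 of the 72 (12.5%, against 7.92% of all genes), and without knockout 2 it called 3 (4.17%, against 3.76%).

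Of the 5 inhibitors, TIMPs 1 to 4 and the membrane-anchored RECK, 4 had a higher knockout mean. Timp3, the main inhibitor of ADAM17 and of the aggrecanases, read 9.45 and 9.36 against 9.09, 9.53 and 8.85. Both knockout arrays lay inside the wild-type range, and the difference was 0.25 ± 0.23 (SE). Timp2 was at -0.13 ± 0.10 (SE), with 9.23 and 8.98 against 9.31, 9.26 and 9.13.

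Of 13 genes for maturation and transport, 8 had a higher and 5 a lower knockout mean. Furin, which removes the prodomain of these enzymes, read 7.14 on both knockout arrays and 7.08, 7.20 and 6.99 in the wild type. Rhbdf2, the gene of iRhom2 that carries ADAM17 to the cell surface, read 7.19 and 7.24 against 7.16, 7.19 and 7.19, a difference of 0.04 ± 0.03 (SE). Tspan17, a tetraspanin that guides ADAM10, was at 7.17 on knockout 1 and on all wild-type arrays and at 6.89 on knockout 2. That 1 array gave its difference of -0.14 ± 0.10 (SE), which was 0 without it and -0.29 without knockout 1 (limma adjusted p = 0.00703).

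Among the 7 measured ligands of the EGF receptor family, all made as membrane precursors that ADAM proteases can release, 4 had a higher and 3 a lower knockout mean. Epgn, epigen, read 7.06 and 5.74 against 7.84, 7.20 and 7.32. Both knockout arrays lay below the wild-type arrays, by a wide margin only on knockout 2. Its difference of -1.05 ± 0.49 (SE) was the one difference of 1.5-fold or more among the 72 genes, against 0.365% of all genes, but it did not pass (limma adjusted p = 0.919). It was -0.39 without knockout 2 and -1.71 without knockout 1, and -0.46 and -1.58 within runs 1 and 2.

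Tgfa, the ADAM17 substrate TGF-alpha, read 5.71 and 5.49 against 5.36, 5.49 and 5.49, at 0.15 ± 0.09 (SE). Hbegf, a heparin-binding ligand, was nearly level, at 8.91 and 9.09 against 8.97, 9.01 and 9.01. Nrg1 read 9.02 and 8.46 against 8.45, 8.58 and 8.10, and Ereg 8.26 and 7.05 against 7.83, 7.94 and 6.97; both were higher on knockout 1 than on knockout 2.

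**Figure D4:**
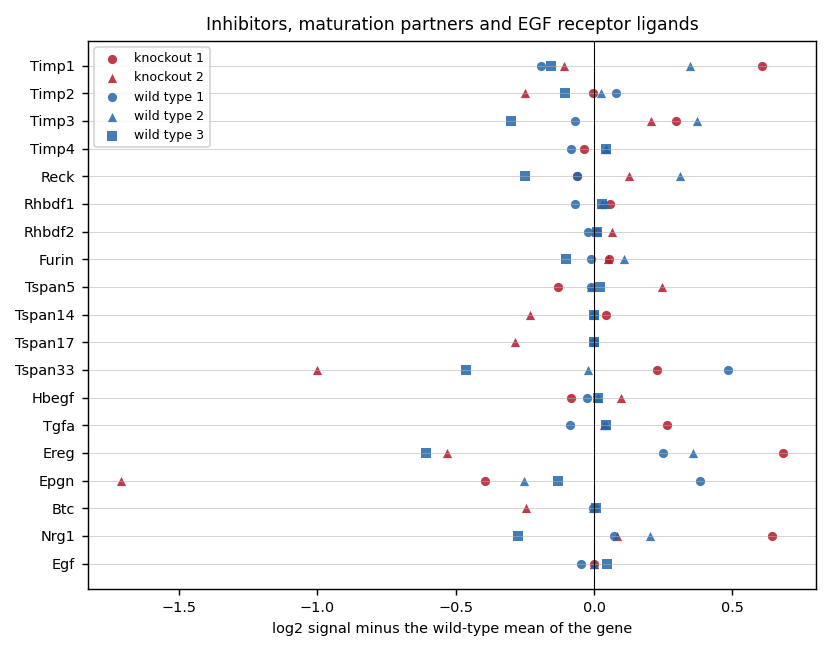
Log2 signal minus the wild-type mean of the gene for 5 inhibitors (Timp1 to Reck), 7 maturation partners (Rhbdf1 to Tspan33) and 7 ligands of the EGF receptor family (Hbegf to Egf), with knockout arrays in red and wild-type arrays in blue. Epgn is the only gene shown whose knockout points both lie below all wild-type points.

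Of 22 other membrane proteins that ADAM proteases cut, 16 had a higher and 5 a lower knockout mean, with a median of 0.07. Among all genes above the olfactory receptor level, as 21 of these 22 were, 5000 were higher and 5713 lower. Notch1, cut by ADAM10, read 7.20 and 7.18 against 7.21, 7.35 and 7.21, so that both knockout arrays lay below the wild type by a narrow margin (-0.07 ± 0.05, SE). Cdh1, E-cadherin, read 10.42 and 10.35 against 10.38, 10.26 and 10.47. Cdh2, N-cadherin, at 4.51 and 4.89 against 4.33, 4.47 and 4.49, and Cx3cl1, the membrane-bound chemokine fractalkine, at 5.78 and 5.91 against 5.74, 5.74 and 5.51, were the genes of this list whose groups did not overlap with the knockout higher. Their differences were 0.27 ± 0.14 and 0.19 ± 0.10 (SE).

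The 18 measured matrix targets of ADAMTS proteases were split, 8 higher and 10 lower, with a median of -0.004. Vcan, versican, the target shared by the proteoglycan-cleaving group, read 7.13 and 6.71 against 7.12, 7.34 and 6.84, a difference of -0.18 ± 0.22 (SE). Of the brain proteoglycans, Ncan was at 0.25 ± 0.14 and Bcan at -0.07 ± 0.04 (SE), with Bcan below the olfactory receptor level. In this list wild type 2 was the highest wild-type array for 14 of 18 genes and knockout 2 was above knockout 1 for 13, the orders seen for Adamts1 and its relatives. Col1a1, Col1a2, Col3a1 and Dcn of this list are also among the fibroblast markers above, so the 2 lists are not independent.

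Of the 7 relatives without a place in the 2 families, the ADAMTS-like proteins, papilin and ADAMDEC1, 3 were higher and 4 lower in the mean. Adamtsl1 read 3.55 and 4.16 against 4.22, 4.35 and 4.09, at -0.37 ± 0.22 (SE). Adamtsl5 rounded to 3.70 on each wild-type array and read 3.68 and 4.01 in the knockout. Its difference of 0.14 ± 0.11 (SE) became 0.31 without knockout 1 (limma adjusted p = 0.00703) and -0.025 without knockout 2. Knockout 2 was above knockout 1 in 7 of these 7 genes, but only 2 of them, Adamtsl4 and Papln, lay above the olfactory receptor level. On knockout 1 and 2, Adamtsl4 read 5.51 and 5.52 and Papln 5.49 and 5.51. Adamtsl1 and Adamtsl5 were among those below that level.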

How the data were processed

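Expression was measured on 5 Affymetrix arrays with cDNA made from 10 ng of total RNA of collagenase-freed mammary epithelial cells, per the labels' protocols. The authors deposited log2 values, 1 per probe set. Per the submitters' processing notes, RMA, which corrects background, normalises quantiles and summarises probes, and limma were used. The sources used here do not give their versions, the array's library files or its build. Of 41345 probe sets, 23521 carry 1 gene symbol in the platform annotation, 1814 several and 16010 none; only the first were used, the brightest per gene, which left 22180 genes. Probe sets naming ADAM or ADAMTS genes numbered 57, of which 2 name Adam34 with another gene and were left out; 4 members had several probe sets. Symbols, neighbours and promoter sequences come from RefSeq (GRCm38.p6), in which all 51 members were found.

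Differences, knockout minus wild type, came from lmFit and eBayes of limma 3.58.1 (R 4.3.3) without covariates. Two-sided p-values were adjusted over all genes by Benjamini-Hochberg and called at 0.05. SEs and 95% intervals are limma's moderated ones. An exact permutation test of 2 against 3 arrays cannot go below 0.1 on the absolute difference, or 0.2 with a doubled one-sided p. The fit was tested on simulated data. The number of arrays limits the precision, and no detection calls were used. The members and lists were chosen with earlier results of these data known. All members are covered by counts and ranges. Array values are given for 8 fixed members, the 6 per direction with the largest moderated t above the olfactory receptor level (5 had a positive one), those above it without overlap and those 1.5-fold apart. In the partner lists they are given for fixed genes and 2 per list by moderated t. Adam1b, Adam26b, Adamts4, Adamts7, Adamts9, Adamts15, Hbegf, Nrg1 and Ereg were added after their values were seen. Alternatives covered blocks, normalisation, filters, probe set summaries, variance models and single arrays left out.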

Additional observations from a re-analysis of the deposited data

How the results depend on the processing

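With all 5 arrays, limma called 0 members, 0 of the 72 list genes and 0 of all genes under every alternative run: the replicate block, a fixed or a random block for the run, quantile normalisation, median centring, dim genes left out, probe sets averaged or tested singly, an intensity trend and array weights. With 1 array left out it called 0 to 4 members, 0 to 9 list genes and 0 to 1757 genes. Members above the olfactory receptor level numbered 10 to 16 over the other background levels and summaries. Members without overlap between the groups, 2 of 51, became 1 with quantile normalisation (1.96%, against 13.4% of all genes), 1 with median centring (1.96%, against 11.7%), 0 without dim genes (against 5.18%) and 4 with averaged probe sets (7.84%, against 5.64%). With 1 array left out there were 2 to 27, the most with 1 knockout array left: 27 without knockout 1 (52.9%, against 46.3%) and 23 without knockout 2 (45.1%, against 37.6%). Chosen after seeing the data, run 1 alone gave 26 (51%, against 46.6%) and genes with 5 different values 1 (6.67%, against 11.1%).

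The sign of small differences turned. The replicate number was also used as a block, though the sample titles do not say that it pairs the arrays. Deviations of equal-numbered arrays from their group means correlated at 0.327 and -0.00855 across genes. With 2 knockout arrays the knockout deviations mirror each other, so these correlations cannot settle whether arrays are paired. With this block, Adam10 was at 0.0034, Adamts12 at -0.065 and Ereg at -0.23. The other genes run through it one by one kept their sign, and no call changed. Cdh1 was at -0.0034 with quantile normalisation, Ereg at -0.0030 with array weights and Hbegf at -0.0086 with the run as a fixed block. In run 1 alone Adam10 was at 0.14, Adam12 at 0.18, Adamts1 at -0.395, Adamts3 at 0.34, Adamts12 at -0.065, Hbegf at -0.078 and Adamtsl5 at -0.025. With 1 array left out the ranges were -0.16 to 0.12 for Adam10, -0.57 to 0.18 for Adam12, -0.020 to 0.098 for Adam15, -0.50 to 0.36 for Adam1b, -0.41 to 0.018 for Adam8, -0.33 to 0.62 for Adamts1, -0.065 to 0.093 for Adamts12, -0.68 to 0.31 for Adamts3, -0.30 to 0.24 for Adamts4, -0.36 to 0.15 for Adamts5, -0.61 to 0.43 for Adamts9, -0.025 to 0.31 for Adamtsl5, -0.043 to 0.062 for Cdh1, -0.53 to 0.68 for Ereg, -0.085 to 0.097 for Hbegf and -0.39 to 0.027 for Vcan; the cause was not tested. Signals near the olfactory receptor level cannot be told from background.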
